A study of Mus musculus with 21 samples.

Results

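The proteins of the cytosolic ribosome are encoded in mouse by genes named Rpl for the large subunit and Rps for the small subunit. Their messages were followed in B-lineage cells through 99 probe sets of 45 genes, 24 of them Rpl genes and 21 of them Rps genes, out of 45037 probe sets on the array that were not controls. A member was a probe set whose single platform gene symbol was Rpl or Rps followed by digits, with the stalk genes Rplp0, Rplp1 and Rplp2 and the small subunit gene Rpsa included where they had a probe set. Rps6k kinase genes and pseudogenes were left out, which removed 1 of the 100 matching probe sets, that of Rps4l, because RefSeq types it as a transcribed pseudogene. The choice used names only and no measured value.

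The study used 21 Affymetrix Mouse Genome 430 2.0 arrays in 7 groups of 3. In 4 groups the RNA was from non-neoplastic bone marrow cells sorted for B220. They came from wild-type mice, from Cebpb LAP transgenic mice (LAP is the activating form of the transcription factor C/EBPβ), from Blnk KO mice (BLNK is an adaptor protein of the pre-B cell receptor) and from mice with both changes. The other 3 groups were LB31, a single pre-B acute lymphoblastic leukaemia line started from a Blnk KO mouse and grown with 5 ng/ml of interleukin 7. The line received pMY retrovirus, either empty, with Blnk cDNA, or with YF, a Blnk mutant without function, and all 3 LB31 groups share the knockout origin. The age and strain of the mice, the promoter of the transgene and whether replicates came from separate animals or cultures are not stated. The p-values thus reflect only how far these arrays spread, which may be technical.

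The labels were set against the arrays first. The Blnk probe set did not follow them: it read 12.44 ± 0.09 (normalized log2 signal, SD, n = 3) in wild-type and 12.37 ± 0.24 in Blnk KO marrow, and 9.63 ± 0.02 with the empty vector against 8.56 ± 0.06 with Blnk cDNA, so the groups are called knockout-labelled, BLNK-labelled and YF-labelled below. A Cebpb probe set followed the LAP label, at 5.43 and 5.02 in wild-type and knockout-labelled marrow and 10.05 and 9.90 in the LAP groups, and it stood at 10.22 in LB31 with the empty vector. Of 9 B-lineage markers 8 were above the filter level in all groups, and Rag1 lay between 2.06 and 3.08 on the LB31 arrays, below that level. Neutrophil markers were present in the marrow groups as well: the log2 of their summed signal over 8 genes ran from 14.27 to 14.59 in wild-type, 14.40 to 15.89 in LAP transgenic, 13.96 to 15.09 in knockout-labelled and 15.15 to 15.53 in LAP knockout-labelled marrow, and from 4.95 to 6.57 over the LB31 arrays. Markers of mature B cells, summed over 4 genes, ran from 13.25 to 13.32 in wild-type and from 9.72 to 9.92 in LAP knockout-labelled marrow. In the same groups megakaryocyte markers ran from 11.29 to 11.36 and from 12.75 to 13.34, and the plasma cell marker Jchain from 9.36 to 9.85 and from 3.78 to 4.47. The part of these other cells in any result on ribosomal protein messages was not tested, and in such bulk samples fewer cells of a type and less message per cell cannot be told apart.

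A ribosome joins a small subunit, which reads the message, to a large subunit, which forms the peptide bond, and each carries ribosomal RNA and a set of small, mostly basic proteins. The cell needs these proteins in matched amounts, and their messages are among the most abundant in growing cells. Most of these messages begin with a run of pyrimidines just at the transcription start, called a terminal oligopyrimidine or TOP motif, through which mTOR signalling sets how much of the message is translated. MYC and growth signals raise the transcription of ribosome genes, and in developing B cells growth of the pre-B stage depends on interleukin 7 and on the pre-B cell receptor.

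The start sites of the genes that carry most of the results are shown because the pyrimidine run is the sequence feature the family is known for. Each window holds 15 bases before the RefSeq start and 15 from it onward, 30 in all, on build GRCm38.p6, 5′ to 3′ on the gene's strand. Capitals mark a run of at least 8 pyrimidines that covers the start or has its nearer end within 5 bases of it on either side.
Rps27l (chr9:66946071-66946100, plus strand): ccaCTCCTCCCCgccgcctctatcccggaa
Rps27 (chr3:90213634-90213663, minus strand): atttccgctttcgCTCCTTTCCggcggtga
Rpl14 (chr9:120571502-120571531, plus strand): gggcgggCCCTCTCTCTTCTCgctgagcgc
Rps6 (chr4:86857353-86857382, minus strand): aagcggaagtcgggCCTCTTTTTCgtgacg
Rpl35 (chr2:39005117-39005146, minus strand): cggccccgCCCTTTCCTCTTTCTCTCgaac
Rps24 (chr14:24490663-24490692, plus strand): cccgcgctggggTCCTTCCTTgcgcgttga
Rplp2 (chr7:141447636-141447665, plus strand): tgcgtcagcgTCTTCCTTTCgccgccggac
Rpl12 (chr2:32961697-32961726, plus strand): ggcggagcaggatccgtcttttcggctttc
Rps19 (chr7:24884577-24884606, plus strand): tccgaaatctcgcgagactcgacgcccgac
Rpl3l (chr17:24727811-24727840, plus strand): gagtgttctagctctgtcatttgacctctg
The windows of Rps27l, Rps27, Rpl14, Rps6, Rpl35, Rps24 and Rplp2 carry a run by this rule, and those of Rpl12, Rps19 and Rpl3l do not. The run of Rps27l ends before the listed start. Rpl12 has a pyrimidine-rich stretch around its start that is broken by other bases. Rps27l and Rps24 have another listed start each, Rps19 has more than 1 other, and Rpl3l has 1 other.

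RefSeq start windows were found for 40 of the 45 genes, 48 windows in all, each reaching from 250 bases before the start to 50 after it. A pyrimidine run at the start was present in 17 of the 48 windows, 35.42%, against 9.723% of all 32851 gene windows of that length. The sequence CCGGAAG, the core that Ets family factors bind, was found on either strand in 20 member windows, 41.67%, against 8.858% of all. The GC box GGGCGG was found in 24 of the 48 against 35.66% of all, and matches of different motifs may overlap. The E box CACGTG, to which MYC binds with MAX, was found in 10.42% against 7.15%, the YY1 sequence AAGATGGC in 6.25% against 2.749%, and the TATA box TATAAA in 10.42% against 13.62%. TTGCNNAA, the core of the palindrome bound by C/EBP factors, was found in 6.25% of member windows against 10.8% of all. A match describes these letters in this window and nothing more.

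Most member probe sets lay at the top of the array's scale and barely moved. Signals are given as log2 of the signal plus 4 after quantile normalization of the arrays, and signals of different probe sets do not measure relative amounts of message. Of the 99 members, 64 had a mean of 12 or more over all 21 arrays, and 35 of the 100 brightest probe sets of the array were members, from 23 genes. Among those 64, the median range between the highest and lowest of the 7 group means was 0.27 on the log2 scale, and the median SD between replicate arrays was 0.05. The 7 group means of 53 of the 64 lay within 0.5 of each other. Below a mean of 12 the median range was 0.96 and the median SD 0.20. So the members that varied most were those with modest signals. Other probe sets with means between 12 and 13 did move. Between LB31 with the empty vector and knockout-labelled marrow the changes of 212 such probe sets ran from -1.79 to 1.26.

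The upper end of the scale limits what can be seen there. The Rps29 probe set 1438859_x_at, whose gene encodes a small zinc-binding protein of the small subunit, was the brightest probe set on 16 of the 21 arrays. Quantile normalization gives the brightest probe set of each array the same value, so its group means could differ by only 0.06. Rpl38 and Rpl19 of the large subunit and Rps14 of the small subunit had probe sets with ranges of 0.08, 0.09 and 0.08 between group means. Of the members, 40 have names ending in _x_at and 3 in _s_at, which the array maker uses for probes that can match other transcripts. Ribosomal protein genes have many processed copies in the genome, so signals of such probe sets may mix near-identical transcripts.

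Rplp0 and Rplp2 encode proteins of the stalk that recruits elongation factors to the large subunit. Rplp0 had group means between 13.25 and 13.35 in the 7 groups. Rplp2 had group means between 13.45 and 13.59, with the widest spread, an SD of 0.11, in LB31 with the empty vector. Neither stalk gene was called in any of the 10 comparisons on these values. On centred values both were higher in LB31 with the empty vector than in knockout-labelled marrow, and both were lower in knockout-labelled and LAP knockout-labelled than in wild-type marrow and in LAP knockout-labelled than in LAP transgenic marrow. On deposited values 1 of the 2 was higher in LB31 and none was called within marrow.

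The summed signal told the groups apart more than the normalized values did. Member probe sets held 5.43%, 5.77% and 5.18% of the summed deposited signal on the 3 wild-type arrays and 5.40%, 5.16% and 5.23% on the LAP transgenic arrays. The share was 4.96%, 4.80% and 4.68% on the knockout-labelled arrays and 4.61%, 4.46% and 4.55% on the LAP knockout-labelled arrays. Both knockout-labelled groups thus lay below every wild-type and LAP transgenic array. In LB31 the share was 6.20%, 6.81% and 6.80% with the empty vector, 6.77%, 6.19% and 6.43% in the BLNK-labelled and 6.18%, 5.96% and 6.01% in the YF-labelled arrays. All 9 LB31 arrays lay above all 12 marrow arrays.

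These shares moved together with the shape of the whole array. At the 50th percentile of the deposited signals the knockout-labelled arrays lay 0.43 (log2) above wild-type, and at the 99th percentile 0.19 above. The LAP knockout-labelled arrays lay 0.45 above wild-type at the 50th percentile and 0.20 above at the 99th. LB31 with the empty vector ran the other way, 0.34 below wild-type at the 50th percentile and 0.06 above at the 99th. The arrays of those groups were therefore stretched or compressed over their whole range, and the part of this in the share was not tested. Because of it, the normalization decides much of what the family appears to do, and the results below are set beside those from values as deposited and from values centred on the median of each array.

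**Figure D1:**
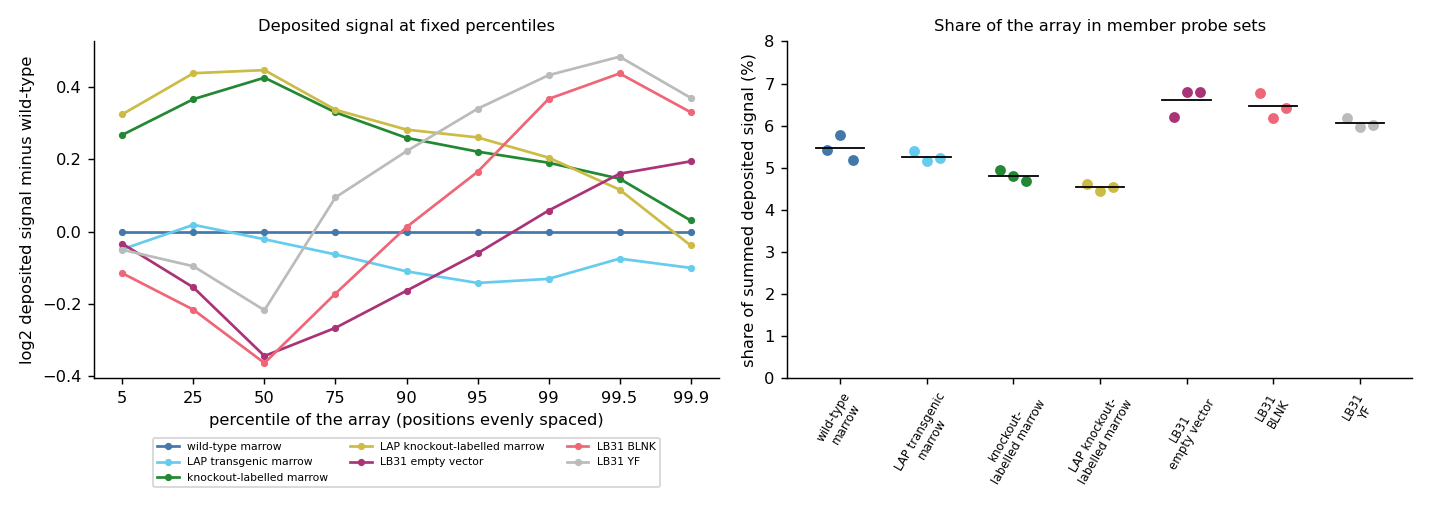
Left, log2 deposited signal at fixed percentiles of the array for each group, minus the wild-type value; right, the share (%) of an array's summed deposited signal in the 99 member probe sets, with points for arrays and lines for group means (n = 3). The knockout-labelled curves lie highest at the 50th percentile and fall towards the top, where the members lie, and the 12 marrow arrays hold shares of 4.46% to 5.77% against 5.96% to 6.81% in LB31.

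The widest contrast was between the leukaemia line with the empty vector and knockout-labelled marrow cells. Of 96 members tested, 42 were higher and 7 lower in LB31, where a member was called at an adjusted p under 0.05 from limma over all probe sets. This is 51.0% of the members, against 56.9% of all 33764 probe sets tested, so calls as such were no more frequent among members. The direction differed: 29.3% of all probe sets and 43.8% of members were called higher, and 27.6% of all and 7.29% of members were called lower. The median change was 0.17 for members and 0.08 for all probe sets. With 1 probe set a gene the medians were 0.073 for members and 0.066 for all, so by gene they hardly differed. On values as deposited 36 members were called higher and 4 lower while the median probe set fell by 0.42, and on centred values 86 were higher and 1 lower with a median of 0.87 against 0.23 for all, so most called members were higher under each of the 3 scalings. Of all 33764 probe sets 4559 were higher and 13957 lower as deposited, and 11209 and 8004 centred. The cells of this comparison also differ in the LAP-following Cebpb probe set, in neutrophil markers and in the Gapdh 3′ to 5′ signal ratio, which ran from 0.701 to 0.725 on the LB31 empty-vector arrays and from 0.822 to 0.850 on the knockout-labelled arrays; their part was not tested.

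On centred values 86 of 96 members were higher. On quantile-normalized values, used for the counts that follow, the rise was seen mainly in members with means under 13. Of the 18 members with means under 8, 9 were higher and 1 lower, with a median change of 0.64. Among the 26325 other probe sets of that signal 6891 were higher and 6492 lower, with a median of 0.10. Of the 14 members with means between 8 and 12, 13 were called higher and 1 lower, with a median change of 0.63 against 0.01 for the other probe sets of that signal. Among those 7037 others 2861 were higher and 2714 lower. Of the 25 members with means between 12 and 13, 13 were higher and 0 lower and the called changes lay between 0.17 and 0.51. Among the 212 others 78 were higher and 84 lower. Of the 39 members with means of 13 or more, 7 were higher and 5 lower, and the median was 0.00 for members and 0.01 for the other probe sets as bright. Among those 94 others 23 were higher and 21 lower. Values of 35 members, from 21 genes, were higher on every LB31 array of all 3 vectors than on every marrow array of all 4 genotypes, and 2 members, of Rps28 and Rps29, were lower on every LB31 array. The same count was not made over all probe sets, so whether members separate more often than others is not known.

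**Figure D2:**
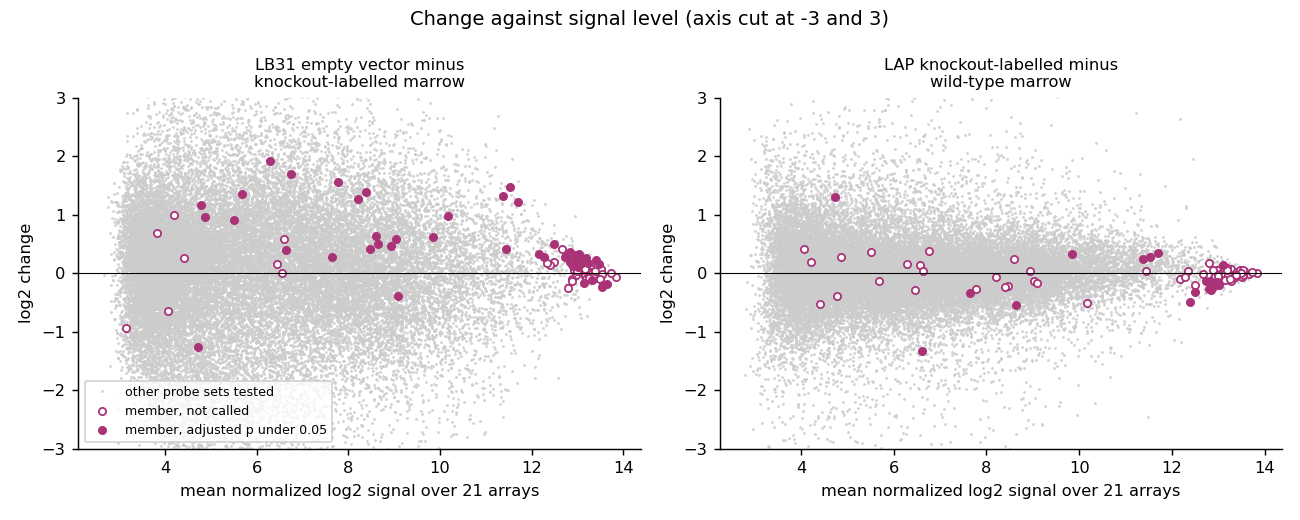
Log2 change against mean normalized log2 signal over 21 arrays for LB31 empty vector minus knockout-labelled marrow (left) and LAP knockout-labelled minus wild-type marrow (right); grey points are all other probe sets tested, open circles members not called and filled circles members at an adjusted p under 0.05. The 39 members with signals of 13 or more sit close to 0 in both panels, and called members between 8 and 12 lie above 0 on the left with 1 exception.

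Rps27l gave the most regular difference. It encodes a near copy of the small subunit protein Rps27 and is known as a p53-induced gene. Its brightest probe set, 1435429_x_at, read 11.03, 11.17 and 11.15 in knockout-labelled marrow and 12.37, 12.35 and 12.30 in LB31 with the empty vector. The groups stood far apart, and the other LB31 arrays read 12.38 to 12.44. The change was 1.22 ± 0.05 (SE), an adjusted p of 1.57e-14 from limma, a rise of 2.33-fold. Its other probe sets rose by 1.48 ± 0.07 (1450925_a_at) and 1.32 ± 0.06 (1423254_x_at), and all 3 were higher under each scaling.

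Rpl14, a protein of the large subunit, showed the largest change among the brightest probe sets of each gene. It read 6.99, 7.24 and 7.20 in knockout-labelled marrow and 8.79, 8.56 and 8.77 in LB31 with the empty vector. All 9 LB31 arrays, at 8.52 to 8.84, lay above the 12 marrow arrays, at 6.88 to 7.46. The change was 1.57 ± 0.11, an adjusted p of 7.12e-11, and was called under each scaling.

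Rpl37, a zinc-binding protein of the large subunit, read 10.14, 9.66 and 9.56 in knockout-labelled marrow and 10.96, 10.56 and 10.78 in LB31 with the empty vector. The change was 0.98 ± 0.18 (adjusted p = 5.82e-05), and marrow arrays spread widely, from 8.94 to 10.30. Rps6, the small subunit protein phosphorylated by S6 kinase downstream of mTOR, read 9.56, 9.72 and 9.74 in knockout-labelled marrow. In LB31 it read 10.30, 10.27 and 10.29, a rise of 0.61 ± 0.09 (adjusted p = 2.87e-06) that was 0.32 and not called on values as deposited. Rps25, a small subunit protein needed for initiation at some viral entry sites, rose by 0.59 ± 0.08 and was likewise not called on deposited values, at 0.17.

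Members of the bright range that rose did so by little. Rpsa, the small subunit protein also known as the laminin receptor, rose by 0.23 ± 0.04 (adjusted p = 0.000136). Rps19, mutated in Diamond-Blackfan anaemia, rose by 0.17 ± 0.04 (adjusted p = 0.000975) and Rpl11, which binds the p53 regulator Mdm2, by 0.20 ± 0.07 (adjusted p = 0.0199). These 3 were called under each scaling, and Rpl11 rose by 0.37 on deposited and by 1.02 on centred values.

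The 7 lower members came from 5 genes. Rps28, in the exit channel of the small subunit, fell by 0.19 ± 0.05 at its brightest probe set (adjusted p = 0.00466) and Rps29 fell by 0.18 ± 0.04 at 1437413_x_at, which was chosen after its value was seen. Neither was called on deposited values, and on centred values these changes turned to gains of 0.60 and 0.59. Rpl3l, a paralog of Rpl3 made mainly in striated muscle, read 5.58, 5.15 and 5.41 in knockout-labelled marrow and 2.99, 4.80 and 4.56 in LB31 with the empty vector. The groups did not overlap, and the drop was 1.27 ± 0.35 in size, at signals near the filter level of 4.06. Rps4l, the pseudogene left out of the members, had a mean of 5.03 in knockout-labelled marrow and LB31 means of 2.45 to 2.67, which lie below the filter level and allow no size for the difference.

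Rps20 and Rpl22 were the only genes, of 22 with more than 1 member tested, whose probe sets were called in opposite directions. Rps20 encodes a protein of the head of the small subunit. Its brightest probe set, 1456373_x_at, read 13.60, 13.68 and 13.59 in knockout-labelled marrow and 13.58, 13.31 and 13.29 in LB31 with the empty vector, a fall of 0.23 ± 0.07 (adjusted p = 0.00801) that turned to a gain of 0.57 on centred values and was not called without empty-vector array 3. Probe set 1450417_a_at read 6.07, 5.99 and 6.23 against 8.10, 7.59 and 7.68, a rise of 1.69 ± 0.17 (adjusted p = 1.09e-08). Probe set 1421935_at rose by 1.92 ± 0.20 (adjusted p = 3.09e-08), and both dim probe sets were higher on every LB31 array than on every marrow array.

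Rpl22 is a large subunit protein with a known role in lymphocyte development. Its probe set 1416603_at read 12.27, 12.33 and 12.38 in knockout-labelled marrow and 12.80, 12.85 and 12.85 in LB31 with the empty vector, a rise of 0.51 ± 0.11. Probe set 1448398_s_at read 9.36, 9.34 and 9.46 against 9.04, 8.88 and 9.07, a fall of 0.39 ± 0.09 that was not called on centred values. The brightest probe set, 1453118_s_at, changed by 0.05 ± 0.05 and was not called, but was called at 0.90 on centred values. Which transcripts each probe set reads was not examined.

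**Figure D3:**
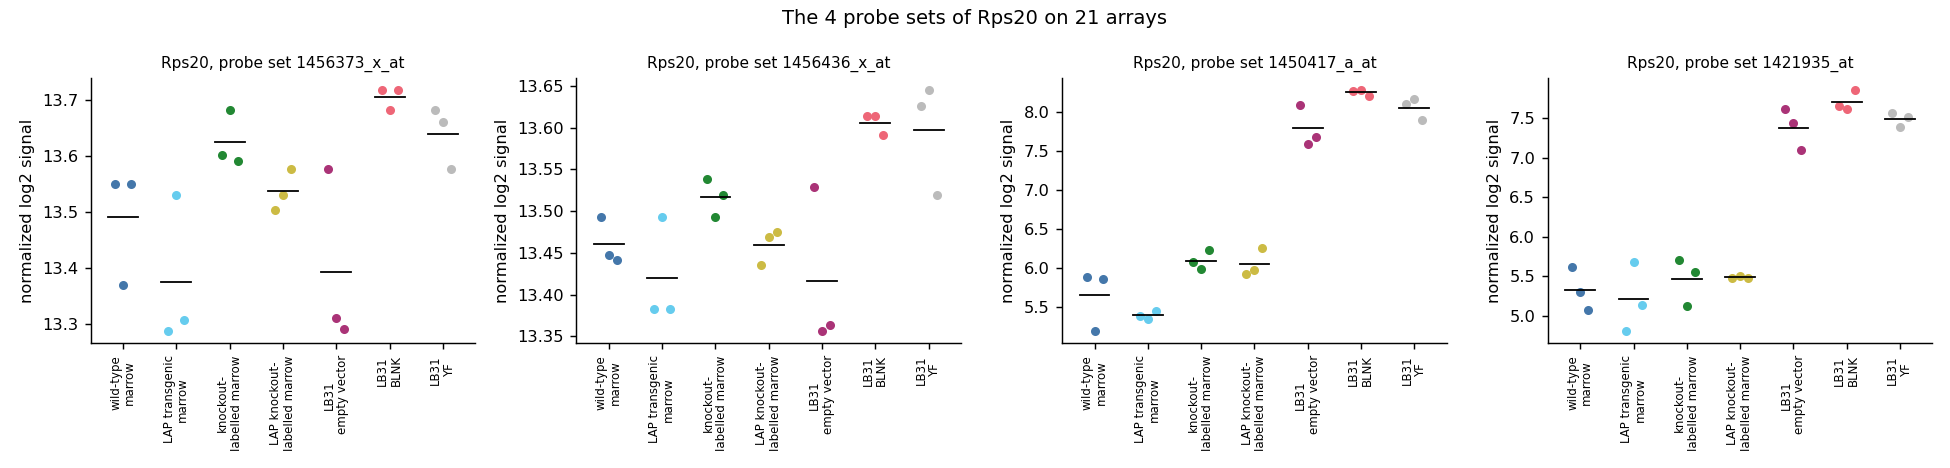
Normalized log2 signal of the 4 probe sets of Rps20 on 21 arrays, with points for arrays and lines for group means (n = 3); each panel has its own vertical axis. The panels of the dim probe sets 1450417_a_at and 1421935_at show all LB31 arrays above all marrow arrays, whereas the bright probe set 1456373_x_at spans 13.29 to 13.72 and is lower with the empty vector than in knockout-labelled marrow except on centred values.

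In marrow, the knockout label alone moved few members. Of 94 tested, 2 were higher and 4 lower in knockout-labelled than in wild-type cells, 6.38% against 12.6% of all 30128 probe sets (6.24% higher, 6.41% lower). The brightest probe sets of Rps9 and Rps26, both small subunit proteins, fell by 0.16 ± 0.04 (adjusted p = 0.0223) and 0.15 ± 0.05 (adjusted p = 0.0493). Rps9 read 12.94, 12.94 and 12.90 in wild-type and 12.75, 12.78 and 12.75 in knockout-labelled marrow, so the groups did not overlap although the gap was small. Rps15, at probe set 1416089_at chosen after its values were seen, read 12.63, 12.62 and 12.64 against 12.38, 12.38 and 12.26, a fall of 0.29 ± 0.05 (adjusted p = 0.00294). None of these 3 falls was called on the values as deposited, where 8 members were higher and 0 lower, and on centred values 1 was higher and 53 lower. Of all 30128 probe sets 6258 were higher and 652 lower as deposited, and 1371 and 2661 centred. Without wild-type array 1 the member counts were 1 and 1, and without knockout-labelled array 1 or 3 they were 1 and 2.

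Rpl3l went the other way. It read 4.87, 4.47 and 4.69 in wild-type, 5.19, 5.03 and 4.65 in LAP transgenic, 5.81, 5.38 and 5.64 in knockout-labelled and 5.91, 5.99 and 6.06 in LAP knockout-labelled marrow. Every array of the 2 knockout-labelled groups lay above every array of the others. The rise over wild-type was 0.93 ± 0.20 (adjusted p = 0.00736) with the knockout label and 1.31 ± 0.20 (adjusted p = 0.000273) with both changes, and both were called under each scaling. The signals lay little above the filter level of 4.20 on this scale, so how much message they stand for is uncertain. Rps4l fell by 1.36 ± 0.26 with the knockout label alone, from 6.51, 6.28 and 7.04 to 5.37, 5.18 and 5.20. In LAP knockout-labelled marrow it read 6.39, 6.44 and 5.33. There the changes of -0.56 from wild-type and -0.24 from LAP transgenic marrow were not called.

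The LAP transgene alone moved a single member. Of 94 tested 0 were higher and 1 lower against wild-type marrow, 1.06% against 2.57% of all probe sets (1.23% higher, 1.33% lower), and 15 members had an unadjusted p under 0.05. The called member was a dim probe set of Rps24, a small subunit protein and another Diamond-Blackfan anaemia gene, 1455195_at, which was chosen after its values were seen. It read 6.76, 7.06 and 7.08 in wild-type, 6.14, 6.34 and 6.40 in LAP transgenic, 6.55, 6.48 and 6.85 in knockout-labelled and 6.97, 6.99 and 7.08 in LAP knockout-labelled marrow. The LAP transgenic arrays were the lowest group and did not overlap the others. The fall was 0.67 ± 0.14 (adjusted p = 0.0245), and the call was lost without wild-type array 2 or 3 or LAP transgenic array 1.

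This probe set was also the only member called for the interaction, the effect of LAP with the knockout label minus its effect without. The interaction was 1.06 ± 0.20 (adjusted p = 0.0184), and 1.06% of members against 1.21% of all probe sets (0.345% higher, 0.866% lower) were called. The brightest probe set of the gene, 1436064_x_at, was not called for either. On the LAP arrays the Gapdh 3′ to 5′ ratio ran from 0.874 to 1.04, against 0.764 to 0.805 in wild-type marrow, and neutrophil markers were highest on LAP array 3; their part was not tested. A probe set of Rps10, 1439374_x_at, also chosen after its values were seen, read 8.97 on LAP array 3 and from 12.14 to 12.76 on the other 11 marrow arrays.

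Marrow with both changes was set against each other marrow group. Against wild-type, 6 of 94 members were higher and 15 lower in LAP knockout-labelled marrow, 22.3% against 25.2% of all probe sets, with 6.38% of members higher and 15.96% lower where all probe sets had 12.6% each way. By the brightest probe set of each gene, 4 of 44 genes were higher and 5 lower. With only such probe sets tested the counts were the same, against 2204 higher and 1959 lower of all 13342 genes. Neutrophil and megakaryocyte markers were higher and mature B cell markers lower in this group, as given above, and their part was not tested. The scaling decided this split: on values as deposited 8 members were higher and 1 lower, and on centred values 2 were higher and 61 lower. Of all 30128 probe sets 8721 were higher and 1522 lower as deposited, and 2857 and 4555 centred. On deposited values the median of all probe sets was 0.33 higher, and the median of members lay 0.36 below that.

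**Figure D4:**
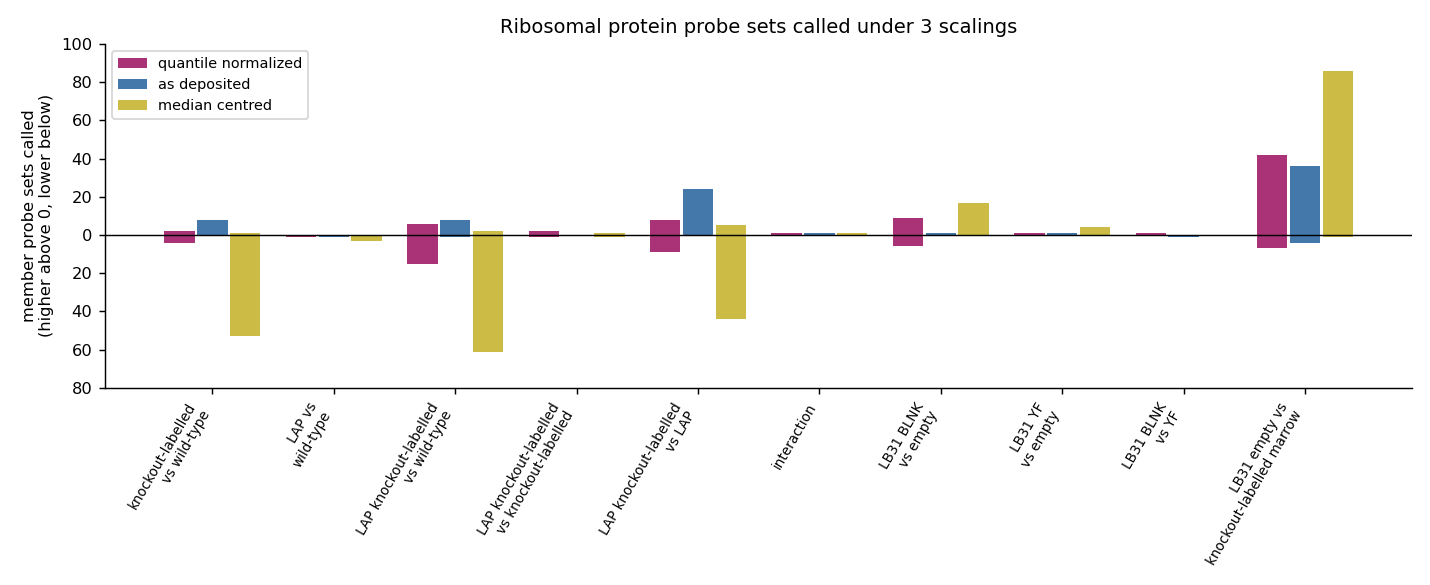
Numbers of member probe sets called higher (above 0) and lower (below 0) in each of the 10 comparisons under 3 scalings of the arrays. With both changes against wild-type marrow the counts are 6 and 15 after quantile normalization, 8 and 1 as deposited and 2 and 61 after median centring, whereas LB31 against knockout-labelled marrow has more members higher than lower under each scaling. Over all 30128 probe sets the counts with both changes were 3807 and 3794, 8721 and 1522, and 2857 and 4555.

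The probe sets of Rps27 and Rps27l moved apart in the doubly changed marrow. Rps27 has a single member probe set, 1460699_at, with a modest mean of 6.61 over all 21 arrays. Its fall could not be checked at another probe set, and whether it stands for the gene's message was not tested. Rps27, a zinc finger protein of the small subunit, read 7.96, 6.68 and 7.31 in wild-type and 5.78, 6.45 and 5.73 in LAP knockout-labelled marrow. The groups did not overlap, and the fall was 1.33 ± 0.31 (adjusted p = 0.00566) and was called under each scaling. LAP transgenic marrow, at 6.57, 6.65 and 6.46, and knockout-labelled marrow, at 6.99, 6.37 and 5.999, had means between those of these groups and were not called against wild-type.

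Rps27l read 10.998, 10.98 and 10.94 in wild-type, 11.05, 11.004 and 11.14 in LAP transgenic, 10.95, 11.09 and 11.06 in knockout-labelled and 11.36, 11.25 and 11.37 in LAP knockout-labelled marrow at its brightest probe set. The last group stood above all other marrow arrays. It was 0.35 ± 0.06 above wild-type (adjusted p = 0.00106), 0.30 ± 0.06 above knockout-labelled (adjusted p = 0.015) and 0.26 ± 0.06 above LAP transgenic marrow (adjusted p = 0.00948). The other probe sets were 0.28 ± 0.08 and 0.25 ± 0.08 above wild-type. The change from wild-type at the brightest probe set was called under each scaling, and that from knockout-labelled marrow was 0.31 and 0.29 but not called on deposited and centred values. The interaction was not called for this gene, so a difference between the LAP changes with and without the knockout label was not shown.

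**Figure D5:**
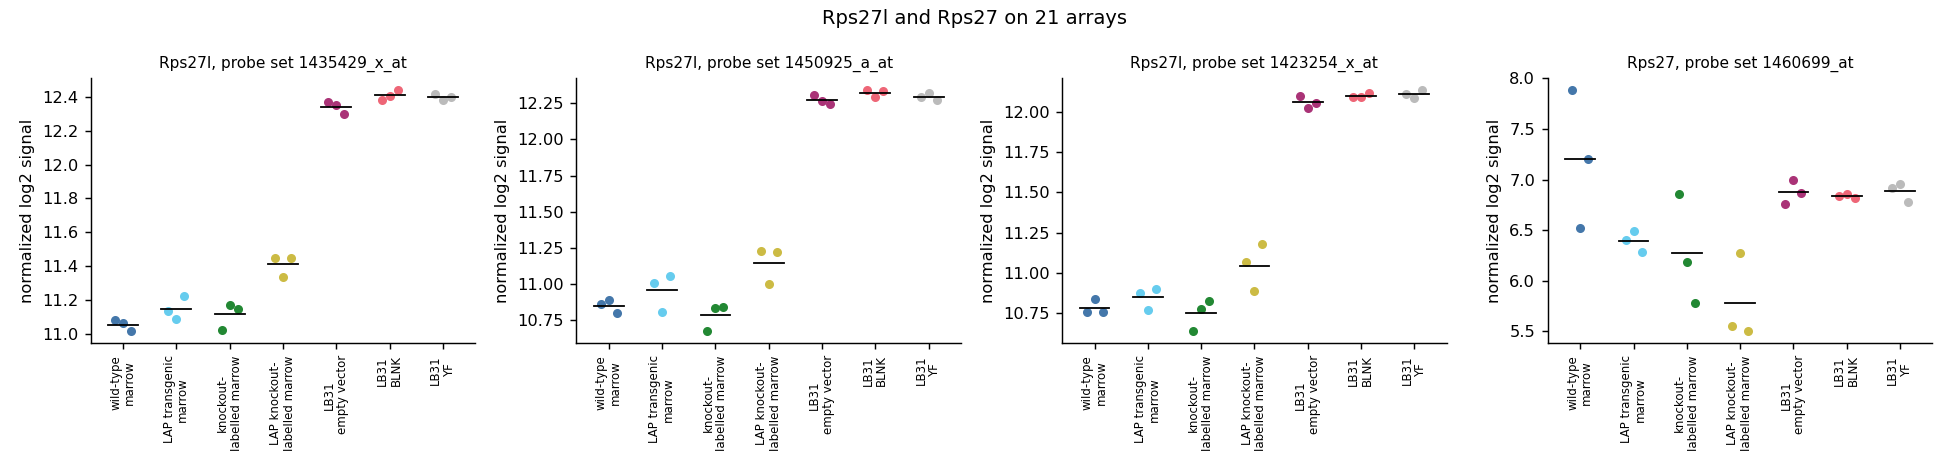
Normalized log2 signal of the 3 probe sets of Rps27l and of the Rps27 probe set on 21 arrays normalized together, with points for arrays and lines for group means (n = 3); each panel has its own vertical axis. LB31 arrays lie from 12.30 to 12.44 at probe set 1435429_x_at of Rps27l, above all marrow arrays, and LAP knockout-labelled marrow lies above the other marrow groups, while Rps27 is lowest in LAP knockout-labelled marrow.

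Other members changed less. Rpl12, a protein at the base of the stalk, fell by 0.54 ± 0.12 (adjusted p = 0.00441), from 8.74, 8.91 and 8.56 in wild-type to 8.32, 8.15 and 8.13. It was 0.53 ± 0.12 below LAP transgenic marrow (adjusted p = 0.00541), and neither change was called on deposited values. Rps6 rose by 0.33 ± 0.10 (adjusted p = 0.0347), from 9.35, 9.36 and 9.38 to 9.72, 9.73 and 9.62, and was not called on centred values. Rps19 rose by 0.14 ± 0.05 (adjusted p = 0.0483) but was not called on deposited values and lay 0.29 below wild-type on centred values. Rps3, which lines the message entry channel, fell by 0.19 ± 0.06, Rps9 by 0.19 ± 0.04 and Rps26 by 0.14 ± 0.05; none of these 3 was called on deposited values. Without any 1 of these arrays 2 to 4 members were higher and 9 to 12 lower, with 2 higher without wild-type array 1 or 3 or LAP knockout-labelled array 1, and 9 lower without wild-type array 3.

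Against LAP transgenic marrow, 8 members were higher and 9 lower in LAP knockout-labelled marrow, 18.1% against 21.1% of all probe sets (11.3% higher, 9.8% lower). On deposited values 24 were higher and 0 lower, and on centred values 5 were higher and 44 lower. Of all 30128 probe sets 10720 were higher and 1084 lower as deposited, and 2849 and 2914 centred. Rpl3l was 1.03 ± 0.20 higher (adjusted p = 0.00217) and the dim Rps24 probe set 0.72 ± 0.14 higher (adjusted p = 0.00224), under each scaling. Rps19 was 0.19 ± 0.05 higher (adjusted p = 0.0102) but 0.11 lower on centred values. Among the falls, Rps9 was 0.21 ± 0.04 lower (adjusted p = 0.00272) and Rps26 0.17 ± 0.05 lower (adjusted p = 0.0152), and on deposited values neither was called and Rps26 turned to 0.0039 higher. Rpl11 read 12.57, 12.63 and 12.27 in LAP transgenic and 12.72, 12.81 and 12.82 in LAP knockout-labelled marrow. It was 0.29 ± 0.08 higher, and 0.06 and not called on centred values. Without LAP transgenic array 2 the member counts were 14 and 8, and without array 1 of that group 5 and 6. Without LAP knockout-labelled array 2 they were 5 and 5, and without array 3 of that group 4 and 7.

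Against knockout-labelled marrow, 2 members were higher and 1 lower in LAP knockout-labelled marrow, 3.19% against 5.08% of all probe sets (1.94% higher, 3.14% lower), while on deposited values 0 and 0 were called and on centred values 1 and 1. Of all 30128 probe sets 419 were higher and 728 lower as deposited, and 490 and 892 centred. Both members called higher after quantile normalization were of Rps27l. The lower one was the Rpl22 probe set 1448398_s_at, at a change of -0.41 ± 0.09 (adjusted p = 0.0235), a probe set chosen after its values were seen. It read 9.37, 9.36 and 9.47 in knockout-labelled and 9.10, 8.98 and 8.91 in LAP knockout-labelled marrow, and the groups did not overlap, but the call was lost on deposited values. Without knockout-labelled array 1 or LAP knockout-labelled array 3 the counts were 0 and 0, without knockout-labelled array 2 they were 1 and 0, and without knockout-labelled array 3 or LAP knockout-labelled array 2 they were 3 and 0. Without LAP knockout-labelled array 1 they were 0 and 1.

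In LB31, BLNK-labelled cells differed little from empty-vector cells. Of 94 members, 9 were higher and 6 lower, 15.96% against 11.4% of all 29478 probe sets (5.6% higher, 5.84% lower), and none of the called changes exceeded 0.5 in size. On deposited values the counts were 1 and 0, on centred values 17 and 0, and with no intensity trend 0 and 0. Over all 29478 probe sets they were 525 and 211, 2318 and 511, and 693 and 955 in the same order. Rps20 was higher at 3 of its probe sets. At 1456373_x_at it read 13.72, 13.51 and 13.49 with the empty vector, 13.85, 13.81 and 13.85 in BLNK-labelled and 13.81, 13.80 and 13.72 in YF-labelled cells. The BLNK-labelled arrays lay above the empty-vector arrays, a rise of 0.26 ± 0.05 (adjusted p = 0.005) that was 0.40 and not called on deposited values. Rpl35, a large subunit protein near the exit tunnel, was higher at 3 of its 6 probe sets, by 0.13 to 0.24, and these were chosen after their values were seen. Rpl41, the smallest ribosomal protein, read 13.32, 13.48 and 13.45 with the empty vector and 13.29, 13.16 and 13.26 in BLNK-labelled cells at its brightest probe set. The groups did not overlap, and the fall of 0.18 ± 0.05 (adjusted p = 0.0388) was called neither on deposited nor on centred values. Rps26 and Rps2 were lower by 0.16 ± 0.05 and 0.11 ± 0.03, but both changes turned positive on deposited and on centred values, at up to 0.05. YF-labelled cells were about as low or lower, though not called, so these falls were not particular to BLNK-labelled cells. Means of Rpl41, Rps26 and Rps2 were 13.42, 13.08 and 13.47 with the empty vector. They were 13.24, 12.91 and 13.36 in BLNK-labelled and 13.16, 12.89 and 13.36 in YF-labelled cells.

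This count rose or fell with the array left out. For Rps20, empty-vector array 1 lay near the BLNK-labelled arrays and away from empty-vector arrays 2 and 3. Without array 1 the counts rose: 25 members were higher and 14 lower in BLNK-labelled cells, and 24 were higher and 15 lower in YF-labelled cells. Counts over all probe sets without single arrays are not given here, so whether members moved more than others is not known. Without empty-vector array 2 the counts were 5 and 0 for BLNK-labelled and 0 and 0 for YF-labelled cells, and without array 3 they were 6 and 0, and 0 and 0. Without BLNK-labelled array 1, 2 or 3 the counts against the empty vector were 5 and 1, 4 and 0, and 6 and 0. The vector comparison therefore rests on few arrays.

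Rpl27a, a large subunit protein, was the only member called between BLNK-labelled and YF-labelled cells, 1.06% of 94 against 6.4% of all probe sets (2.53% higher, 3.86% lower). It read 9.23, 9.07 and 9.19 with the empty vector, 9.50, 9.40 and 9.37 in BLNK-labelled and 9.11, 9.14 and 9.01 in YF-labelled cells. The BLNK-labelled arrays stood above both other groups. The difference from YF was 0.34 ± 0.06 (adjusted p = 0.00453) and that from the empty vector 0.26 ± 0.06 (adjusted p = 0.0147), and neither was called on deposited values. A probe set of Rps7, 1419364_a_at, chosen after its values were seen, was the only member called between YF-labelled and empty-vector cells, 1.06% against 0.227% of all (0.109% higher, 0.119% lower). It read 13.46, 13.31 and 13.30 with the empty vector and 13.62, 13.59 and 13.60 in YF-labelled cells, a rise of 0.25 ± 0.04 (adjusted p = 0.0377), and 36 members had an unadjusted p under 0.05 in that comparison. The call was lost without any 1 of the YF-labelled arrays, without empty-vector array 2 or 3, on deposited values, with no filter, with no intensity trend and with the replicate block.

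Other genes of the translation machinery, taken from lists of names with 1 probe set a gene, moved more between LB31 and knockout-labelled marrow than the ribosomal proteins did in these values. Of all 33764 probe sets 29.3% were higher and 27.6% lower there, with a median change of 0.08. Of 30 genes for ribosome assembly, 28 were higher and 0 lower, with a median change of 1.45, led by Rrp9, which helps to modify ribosomal RNA, at 3.66 ± 0.32, and Nolc1, a nucleolar chaperone, at 2.40 ± 0.08. Of 76 mitochondrial ribosomal protein genes, 70 were higher and 1 lower, with a median of 0.85. Mrps27 and Mrpl38 rose by 2.23 ± 0.16 and 2.11 ± 0.16, and Mrpl39 fell by 0.29 ± 0.06. Of 13 cap-binding and initiation factors 10 were higher and 2 lower, with a median of 0.86, and Eif4ebp1, the mTOR target that holds back eIF4E, rose by 1.38 ± 0.08.

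Elongation factors and other messages of the TOP class lay nearer to the ribosomal proteins: 14 of 18 were higher and 3 lower, with a median of 0.30. Eef2, which moves the ribosome along the message, rose by 0.83 ± 0.05, and Eef1a1, which brings aminoacyl-tRNA, fell by 0.14 ± 0.04, whereas all 18 of the list were higher on centred values and 7 higher and 0 lower on deposited values. By the brightest probe set of each gene, 8 of 20 large subunit genes were higher and 0 lower, with a median of 0.06, and 8 of 19 small subunit genes were higher and 2 lower, with a median of 0.12. The lists differ in where their probe sets lie on the scale, with a median signal of 13.12 for the large and 13.23 for the small subunit, 11.88 for the elongation list, 9.29 for assembly and 9.11 for mitochondrial ribosomal proteins. On centred values the medians were 0.88 and 0.92 for the 2 subunits and 0.81 for the elongation list, and 1.73 for assembly, where all probe sets had 0.23. On deposited values 24 assembly genes were higher and 1 lower, 47 mitochondrial ribosomal protein genes higher and 2 lower, and 7 initiation factors higher and 1 lower. Members of each list were chosen by name, and no test compared the lists.

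Among relatives that the naming rule leaves out, Rpl22l1, the paralog of Rpl22, rose by 1.17 ± 0.07 in LB31 against knockout-labelled marrow. Rpl7l1 rose at all 3 of its probe sets, by 0.34 ± 0.07 to 1.45 ± 0.08. Fau, which encodes the small subunit protein Rps30 as a fusion, fell by 0.28 ± 0.05 in LAP knockout-labelled against wild-type marrow (adjusted p = 0.0016), a fall also seen at 0.21 ± 0.05 with the knockout label alone (adjusted p = 0.0206) but not called there on deposited values. Rpl39l, a paralog of Rpl39 known from testis, had group means between 3.54 and 4.49 around the filter level and was called in none of the comparisons in which it was tested.

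Genes with and without a pyrimidine run at a listed start were set side by side as a description. Of the 17 genes with a run that were tested, 8 were higher and 0 lower in LB31 against knockout-labelled marrow, with a median of 0.11. Of the 22 without, 9 were higher and 2 lower, with a median of 0.10. Of all probe sets 29.3% were higher and 27.6% lower in that comparison. In LAP knockout-labelled against wild-type marrow the counts were 2 and 3 with a run and 2 and 2 without, with medians of -0.02 in each, where 12.6% of all probe sets were called each way.

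Of the 99 members, 94 passed the filter on low signal within marrow, 94 within LB31 and 96 over all arrays. The 3 that passed none were the probe set of Rps16 and 1 probe set each of Rps3 and Rps4x. Rps16 has no other member, so nothing can be said of it here.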

How the data were processed

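Total RNA (100 ng per sample) was labelled as biotin cRNA and hybridised to 21 single-colour arrays. The values used are the intensity per probe set that the authors deposited, made with MAS5 per the submitters' processing notes; its version and scaling target are not given in the sources used here. From these, log2(intensity + 4) was taken and quantile normalized separately for comparisons within marrow (12 arrays), within LB31 (9 arrays) and between them (21 arrays). A probe set had to exceed the 40th percentile of an array on 3 or more of these and was then tested with limma 3.58.1 in R 4.3.3 (lmFit, eBayes with trend, two-sided), with Benjamini-Hochberg adjustment over all probe sets of the fit and calls at an adjusted p under 0.05. The procedure was tested on simulated data. Alternatives were deposited or median-centred values, pseudocounts 1 and 16, no filter, no trend, 1 probe set a gene, no shared-name probe sets, a replicate block and leaving out each array. Array number limits the precision.

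The names given were drawn, in each comparison, from the 5 largest rises and 5 largest falls among called genes by their brightest probe set, 21 listed stalk, disease-linked and paralog genes, at most 2 rises and 2 falls from each other list, and genes with probe sets called in opposite directions. Members and lists were chosen with earlier results of these data known. Windows and names come from RefSeq.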

Additional observations from a re-analysis of the deposited data

Results flagged for a closer look

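The Rps24 probe set 1455195_at was the only member called for a change with the LAP transgene that differed between wild-type and knockout-labelled marrow, by a test of the difference itself. This was 1.06% of members against 1.21% of all probe sets, so calls were no more frequent among members. Members not called were not shown to be without a difference, and the largest estimate, 1.22 at another member, was not called. For the Rps24 probe set the interaction was 1.06 on the log2 scale. Its call was lost without any 1 of wild-type arrays 2 and 3, LAP transgenic array 1, knockout-labelled arrays 1 and 2 and LAP knockout-labelled array 3, and the brightest probe set of the gene was not called.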

How the results depend on the processing

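Counts are of member probe sets called higher and lower, and the cause of a change was not tested except where a setting leaves fewer probe sets or arrays. On values as deposited they were 8 and 0 with the knockout label alone against wild-type, in LAP knockout-labelled marrow 8 and 1 (wild-type as reference), 0 and 0 (knockout-labelled as reference) and 24 and 0 (LAP transgenic as reference), for BLNK-labelled cells 1 and 0 (empty vector) and 0 and 1 (YF), and 36 and 4 in LB31 over marrow. On median-centred values they were 1 and 53, 2 and 61, 1 and 1, 5 and 44, 17 and 0, 0 and 0, and 86 and 1 in the same order, with 0 and 3 for LAP transgenic against wild-type and 4 and 0 for YF against the empty vector. Most counts over all probe sets under these 2 scalings stand with the comparisons above. For BLNK-labelled against YF they were 93 and 690 as deposited and 197 and 883 centred. Centred, they were 263 and 673 for LAP transgenic against wild-type and 1796 and 37 for YF against the empty vector. Mean member levels of the wild-type, LAP transgenic, knockout-labelled, empty-vector, BLNK-labelled and YF-labelled groups were 10.73, 10.55, 10.87, 11.06, 11.24 and 11.31 as deposited and 10.73, 10.56, 10.50, 11.33, 11.53 and 11.49 centred, with 10.43 centred for LAP knockout-labelled.

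Some directions turned. Against LAP transgenic marrow, LAP knockout-labelled values as deposited were 0.0039 for Rps26 and 0.046 for Rps15 1416089_at. BLNK-labelled against empty-vector values were 0.017 as deposited and 0.033 centred for Rps26, and 0.029 and 0.045 for Rps2. LB31 against marrow gave -0.27 as deposited for Rps24 1455195_at, and 0.57, 0.60 and 0.59 centred for Rps20 1456373_x_at, Rps28 and Rps29 1437413_x_at. Rps19 centred was -0.29 against wild-type and -0.11 against LAP transgenic marrow.

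With no filter the counts were 1 and 1 for knockout-labelled against wild-type, 9 lower for LAP knockout-labelled against wild-type, 5 and 3 against LAP transgenic, 0 lower for BLNK-labelled and 0 higher for YF-labelled against the empty vector. Over all 45037 probe sets they were 1631 and 1711, 3478 lower, 3069 and 2692, 1474 lower and 12 higher in the same order. With no intensity trend they were 1 and 0, 2 and 6, 4 and 1, 0 and 0, and 0 higher, with 0 and 0 against knockout-labelled marrow and 0 higher for BLNK-labelled against YF. Over all probe sets they were 1484 and 1596, 3328 and 3467, 2892 and 2589, 693 and 955, and 1 higher in the same order. Against knockout-labelled marrow they were 362 and 675, and 302 were higher for BLNK-labelled against YF. With 1 probe set a gene they were 1 and 2, 5 lower, 5 and 3, 3 and 3, and 0 higher, with 1 and 0 against knockout-labelled marrow, 0 lower for LAP transgenic, 0 higher for the interaction, 1 lower in BLNK-labelled than YF-labelled cells and 17 and 3 in LB31 over marrow. Over all genes they were 1118 and 1159, 1959 lower, 1931 and 1670, 957 and 1115, and 17 higher. The rest, in the same order, were 440 and 581, 251 lower, 65 higher, 663 lower, and 4309 and 4386. Without the probe sets ending in _x_at, _s_at and _a_at they were 1 and 1, 2 and 4, 3 and 2, 1 and 0, and 0 higher, with 0 and 0 against knockout-labelled marrow and 16 and 1 for LB31 against marrow. There 26 members were tested, or 28 for LB31 against marrow, and the shares over all probe sets were those given above. At pseudocount 16, 1 was lower for BLNK-labelled against YF, as were 1141 of all 29478 probe sets.

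For arrays with the same replicate number, deviations from the group means correlated at r from -0.09 to 0.24 in marrow and -0.03 to 0.02 in LB31. For arrays with different numbers r ran from -0.25 to 0.20 and from -0.04 to 0.04. The labels give only the number, and a shared preparation was not tested. With the replicate block the counts were 1 and 2 for knockout-labelled against wild-type, 10 and 3 for BLNK-labelled and 0 higher for YF-labelled against the empty vector, and 2 and 1 between BLNK-labelled and YF-labelled cells. Over all probe sets they were 1862 and 1862, 1683 and 1686, 1 higher, and 719 and 1082 in the same order.

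Leaving out each array gave 1 to 2 higher and 1 to 4 lower for knockout-labelled against wild-type, 0 higher and 0 to 3 lower for LAP transgenic against wild-type, and for LAP knockout-labelled marrow 2 to 4 and 9 to 12 (wild-type as reference), 0 to 3 and 0 to 1 (knockout-labelled) and 4 to 14 and 5 to 8 (LAP transgenic), and 0 to 1 and 0 for the interaction. In LB31 it gave 4 to 25 and 0 to 14 for BLNK-labelled and 0 to 24 and 0 to 15 for YF-labelled against the empty vector, and 1 to 2 and 0 between BLNK-labelled and YF-labelled cells, and LB31 against marrow gave 40 to 44 and 5 to 11. The same ranges are not given here for all probe sets, so how far the whole array moved with them is not known.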
